A study of Mus musculus with 4 samples.

Results

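The genes described here are 30 genes of the integrated stress response that is run by the transcription factor ATF4. They were chosen by symbol from a written list of ATF4 and its partner transcription factors, feedback and stress effector genes, amino acid synthesis genes, amino acid transport genes, and genes of secreted factors and a receptor. All 30 were found among the 47937 genes of the deposited counts table. The samples were MEF cells, which are mouse embryonic fibroblasts, of the wild-type genotype. The untreated group had 2 libraries and the genistein group had 2 libraries of cells exposed to 50 µM genistein for 24 h. Genistein is a plant isoflavone that inhibits tyrosine kinases and topoisomerase II. All cells were grown in high glucose DMEM with serum, glutamine, pyruvate and non-essential amino acids, so serine, glycine, asparagine and proline were supplied by the medium. The labels name no vehicle for the untreated cells, and they do not say whether the libraries of a group came from separate cultures, so the p-values measure only the spread between these libraries.

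In the integrated stress response, kinases that sense amino acid shortage, misfolded protein, heme shortage or double-stranded RNA phosphorylate the translation initiation factor eIF2. General protein synthesis then falls, while the Atf4 mRNA is translated more through upstream open reading frames in its leader. ATF4 protein pairs with C/EBP factors and binds C/EBP-ATF response elements (CARE) at genes for amino acid supply, redox balance, feedback and cell death. In fibroblasts the response is known from amino acid starvation and from stress of the endoplasmic reticulum (ER). Protein levels and eIF2 phosphorylation are not part of these data, which give mRNA counts.

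The CARE letters TGATGNAA, in which N is any base, were looked for on both strands of RefSeq promoter windows (GRCm38.p6), which run from 250 bases before to 50 bases after each annotated start. A window was given for 27 of the 30 genes, and 9 of them held the letters. They are shown because ATF4 is known to act at such stretches, and their presence is set beside the direction of each gene at the end. Each line gives 30 bases of the gene's own strand from 5′ to 3′, with the match in capitals. A match on the other strand appears as the reverse complement. The lines run in chromosome order.
Atf3, chr1:191183425-191183454, minus strand: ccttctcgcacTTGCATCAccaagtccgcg
Chac1, chr2:119351038-119351067, plus strand: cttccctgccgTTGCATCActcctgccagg
Trib3, chr2:152344028-152344057, minus strand: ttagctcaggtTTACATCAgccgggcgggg
Asns, chr6:7693214-7693243, minus strand: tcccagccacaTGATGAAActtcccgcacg
Fgf21, chr7:45615611-45615640, minus strand: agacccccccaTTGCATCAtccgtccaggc
Nupr1, chr7:126625562-126625591, minus strand: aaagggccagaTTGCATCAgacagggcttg
Pycr1, chr11:120643833-120643862, minus strand: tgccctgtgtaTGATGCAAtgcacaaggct
Pck2, chr14:55540152-55540181, plus strand: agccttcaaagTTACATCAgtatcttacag
Vldlr, chr19:27216809-27216838, plus strand: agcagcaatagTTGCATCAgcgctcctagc

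The letters TTGCATCA stood in the windows of Atf3, Chac1, Fgf21, Nupr1 and Vldlr, and their reverse complement TGATGCAA stood in that of Pycr1. Trib3 and Pck2 shared TTACATCA, and Asns had TGATGAAA. In the GENCODE annotation the match lay in an exon of the gene itself for Asns, Nupr1 and Vldlr, which was untranslated sequence for Asns and Nupr1, and in an intron for Atf3. It lay outside annotated genes for Chac1, Trib3, Fgf21 and Pycr1, and in an intron of the neighbouring gene Gm10876 for Pck2. The letters TGACGTCA are the full cAMP response element, to which ATF and CREB factors bind. They stood in 1 of the 27 windows and in a window of 2.03% of all gene symbols. A match of letters is a description of the sequence and not evidence of binding.

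The total counts over genes and repeats lay between 28591958 and 31464284 per library. Replicates of a group correlated with r = 0.995 over log2 normalised counts of 17358 genes and repeats, and both pairs differed by more than sampling noise. The share of mitochondrially encoded genes was 2.07% and 1.96% untreated and 3.30% and 3.14% with genistein, and that of repeats was 11.97% and 12.5% against 14.6% and 13.6%. Of 14 fibroblast markers, 13 had counts and Thy1 was at 0, with a summed normalised count of 452000 and 464178 in the untreated and 440184 and 430632 in the genistein libraries. The summed level of 5 epithelial markers was 452 and 462 untreated and 137 and 131 with genistein, with Epcam and Krt5 at 0. Endothelial markers (4 of 4 with counts) summed to 24.97 and 30.7 against 85.3 and 97.2. Blood markers summed to 84.9 and 65.6 against 211.0 and 213.6, with Adgre1 and Hbb-bs at 0 in all libraries. Neural and muscle markers summed to 949 and 886 against 1058 and 1006, with Sox10 and Myod1 at 0, and Alb and Ttr of the 3 liver markers were at 0. The part of these shifts in the results below was not tested.

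The ATF4 genes did not move together after genistein exposure. The death and feedback genes Ddit3, Ddit4, Trib3, Chac1 and Atf3, and the lipoprotein receptor gene Vldlr, were 3.10-fold to 4.33-fold higher than in untreated cells. Of all genes tested, 1.63% to 3.36% had a larger log2 fold change than these genes. The serine, glycine and folate genes Phgdh, Shmt2 and Mthfd2, the proline synthesis gene Aldh18a1 and the leucine transporter gene Slc7a5 were lower, by at most 1.64-fold. Such decreases were common, since 13.1% to 28.9% of all genes tested had a lower log2 fold change than these genes. The Atf4 mRNA itself was slightly lower, with a log2 fold change of -0.11. In bulk RNA, fewer cells of a kind and less RNA per cell cannot be told apart.

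Of the 30 genes, 28 passed the filter on low counts and were tested, and Stc2 and Fgf21 did not. At an adjusted p under 0.05, 15 of the 28 were higher and 10 were lower (quasi-likelihood test of edgeR, with p adjusted by Benjamini-Hochberg across all genes and repeats). Genistein moved most of the transcriptome by this rule, since 33.5% of the 16240 genes tested were called higher and 38.2% lower. The 53.6% of tested ATF4 genes called higher lay above that background and the 35.7% called lower lay near it. The higher share includes Cbs, Slc7a3 and Gdf15, which passed the filter only through the genistein libraries, where they were high. Among the tested ATF4 genes with a mean above 100 normalised counts, 12 were higher and 10 lower. The shares over all genes with such a mean are not given here, so these counts do not show whether an excess of higher genes remains. When libraries were scaled by their totals alone, the split over all 28 genes was 15 higher and 6 lower. The study's own thresholds add a log2 fold change beyond 1 in either direction and a mean above 100 normalised counts. These were passed upward by 6 of the 28 genes (21.4%), against 3.92% of all genes tested, and downward by 0, against 4.16% of all genes. No rule on p could change this count of 0, since the lowest log2 fold change of the 28 genes was -0.72. With DESeq2 it was 0 as well. Both genistein libraries lay above both untreated libraries for 16 of the 28 genes and below them for 11, against 40.7% and 44.6% of all genes. Only Cth overlapped between the groups. The median log2 fold change was 0.16 over the 28 genes and -0.03 over all genes tested. Without the library genistein 1, Cbs fell under the filter and the median was 0.06 over the other 27 genes, which had a median of 0.11 with all libraries.

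**Figure D1:**
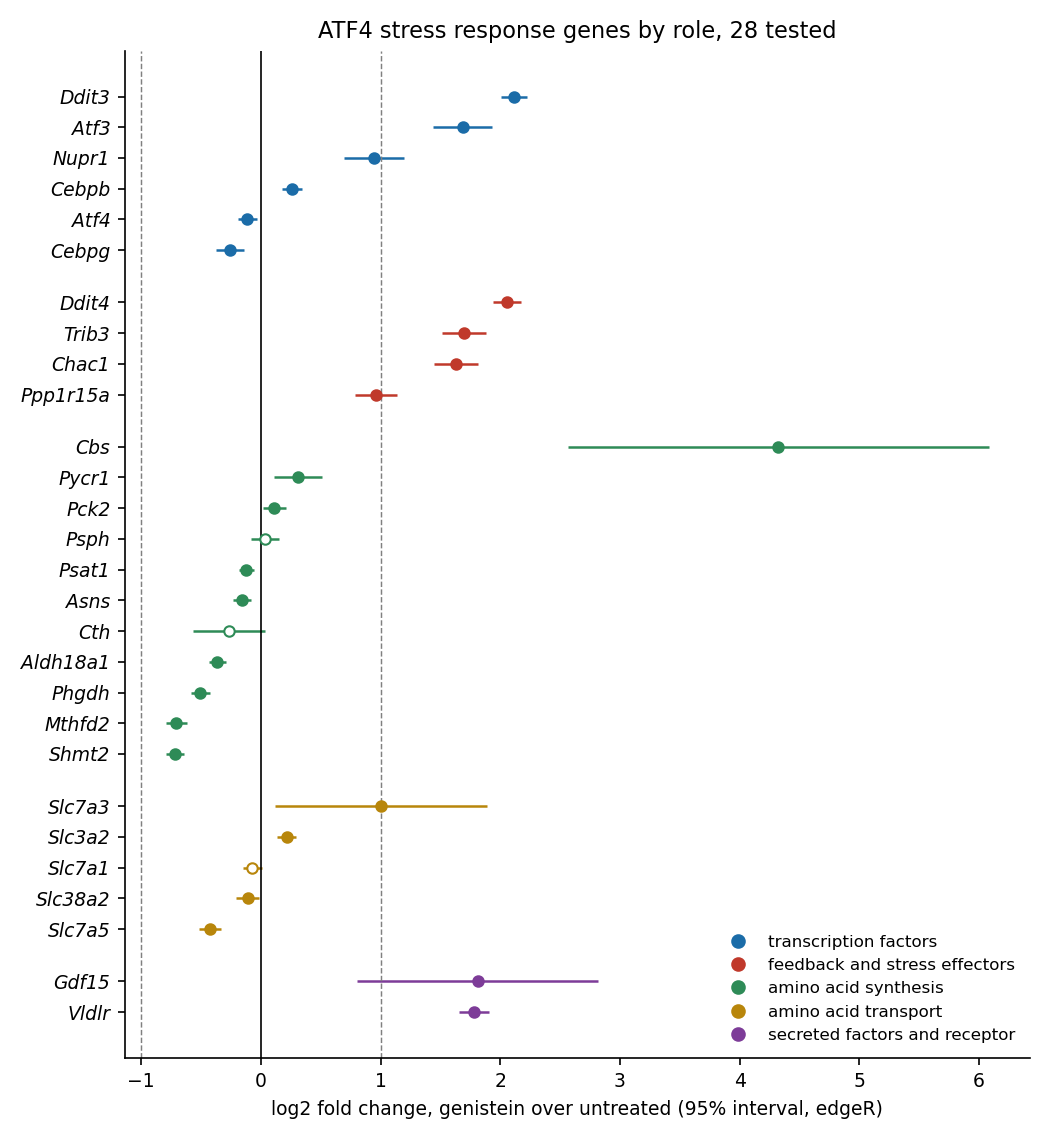
Log2 fold changes (x axis, genistein over untreated) of the 28 tested ATF4 genes, grouped and coloured by role, with 95% intervals from edgeR. Filled points passed an adjusted p under 0.05, open points (Psph, Cth, Slc7a1) did not, and dashed lines mark -1 and 1. The 4 feedback and stress effectors all lie to the right of 0, most amino acid synthesis genes lie close to or left of 0, and the Cbs value of 4.32 rests on 27 reads in all 4 libraries.

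Among the 6 transcription factor genes, 4 were higher (66.7%) and 2 were lower (33.3%), with a median log2 fold change of 0.60. Over all genes tested, 33.5% were called higher and 38.2% lower. Atf4 (chr15:80255184-80257541, plus strand, GRCm38) encodes the central factor of the response. It had 7593 and 7503 normalised counts in untreated cells and 6904 and 7038 after genistein. The groups did not overlap, and the decrease was small (log2 fold change -0.11, SE 0.04, edgeR adjusted p = 0.010). This small decrease did not pass the test under 3 alternatives, which were scaling by library totals, scaling from genes alone, and leaving out the library untreated 1 (adjusted p from 0.0022 to 0.36 over all alternatives). Per kilobase of exon, Atf4 had a level of 3201 normalised counts in untreated cells, close to the 3422 of Cebpb and above the other 28 genes.

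Ddit3 encodes CHOP, a transcription factor that promotes cell death under lasting stress, and lies at chr10:127290774-127296288 on the plus strand. Its normalised read count was 494 and 486 in untreated cells and 2118 and 2126 after genistein. The genistein libraries were thus nearly equal and far above the untreated ones. This was a 4.33-fold increase (log2 fold change 2.11, standard error [SE] 0.05, edgeR adjusted p = 5.2e-15), and 1.63% of all genes tested had a larger one. The ratio of Ddit3 to Atf4, both as normalised counts per kilobase, was 0.0896 and 0.0892 in untreated cells and 0.422 and 0.416 after genistein.

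Atf3, a stress-induced factor of the same basic leucine zipper class (chr1:191170296-191218039, minus strand), stood at 125.9 and 96.3 normalised counts in untreated cells and at 367.6 and 350.2 after genistein. Its untreated libraries differed more from each other than its genistein libraries did, and the groups were well apart. The increase was 3.22-fold, with a log2 fold change of 1.69 and a standard error of 0.12 (edgeR adjusted p = 1.6e-09). Nupr1, a small nuclear stress protein, rose from 125.9 and 117.5 to 250.4 and 217.6. Its log2 fold change of 0.94 (SE 0.12, edgeR adjusted p = 2.4e-06) lay just under the study's limit of 1 and was 1.01 when libraries were scaled by their totals.

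The C/EBP partners of ATF4 went opposite ways by small amounts. Cebpb rose from 5160 and 5134 to 5848 and 6478 normalised counts, a log2 fold change of 0.26 (SE 0.04, edgeR adjusted p = 2.4e-05). Cebpg fell from 1463 and 1328 to 1181 and 1150, a log2 fold change of -0.26 (SE 0.05, edgeR adjusted p = 0.00043). Per kilobase, the ratio of Cebpb to Cebpg was 13.2 and 14.5 in untreated cells and 18.5 and 21.1 after genistein. The strand setting of the authors' counting was not stated, and 6 of the 30 genes share exon bases with another counted gene, 2 of them at least 100 bases (Cebpb and Psph). Of Ddit3, 68 of 1713 exon bases overlap Mars, which had a log2 fold change of -0.87, and 312 of the 1504 exon bases of Cebpb overlap Tmem189 on the other strand. Tmem189 itself had a log2 fold change of -0.37.

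The feedback and stress effector genes all rose, 4 of 4, with a median log2 fold change of 1.66, and 3 of them passed the study's thresholds. Over all genes tested, 33.5% were called higher and 3.92% passed those thresholds upward. Ddit4 (chr10:59949669-59951834, minus strand) encodes an inhibitor of the growth kinase mTOR. It had 465.5 and 463.7 normalised counts in untreated cells and 1969 and 1890 after genistein. Replicates were close in both groups. The increase was 4.15-fold, with a log2 fold change of 2.05 and a standard error of 0.05 (edgeR adjusted p = 1.5e-14).

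Trib3 (chr2:152337422-152344032, minus strand) encodes a pseudokinase that binds ATF4 and restrains it. It stood at 160.8 and 168.3 normalised counts in untreated cells and at 543.9 and 520.3 after genistein, a 3.23-fold increase (log2 fold change 1.69, SE 0.09, edgeR adjusted p = 3.7e-11). Chac1 (chr2:119351229-119354381, plus strand) encodes an enzyme that breaks down glutathione. It went from 162.8 and 166.2 to 512.9 and 507.1 normalised counts, a 3.10-fold increase (log2 fold change 1.63, SE 0.09, edgeR adjusted p = 5.5e-11). Replicates of both genes lay close together and far from the other group.

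Ppp1r15a encodes GADD34, the phosphatase subunit that removes the phosphate from eIF2 and so ends the response. Its normalised read count was 247.7 and 228.7 in untreated cells and 452.0 and 476.7 after genistein. The increase was 1.95-fold, with a log2 fold change of 0.96 and a standard error of 0.08 (edgeR adjusted p = 3.0e-08), and the log2 fold change was 1.03 when libraries were scaled by their totals.

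**Figure D2:**
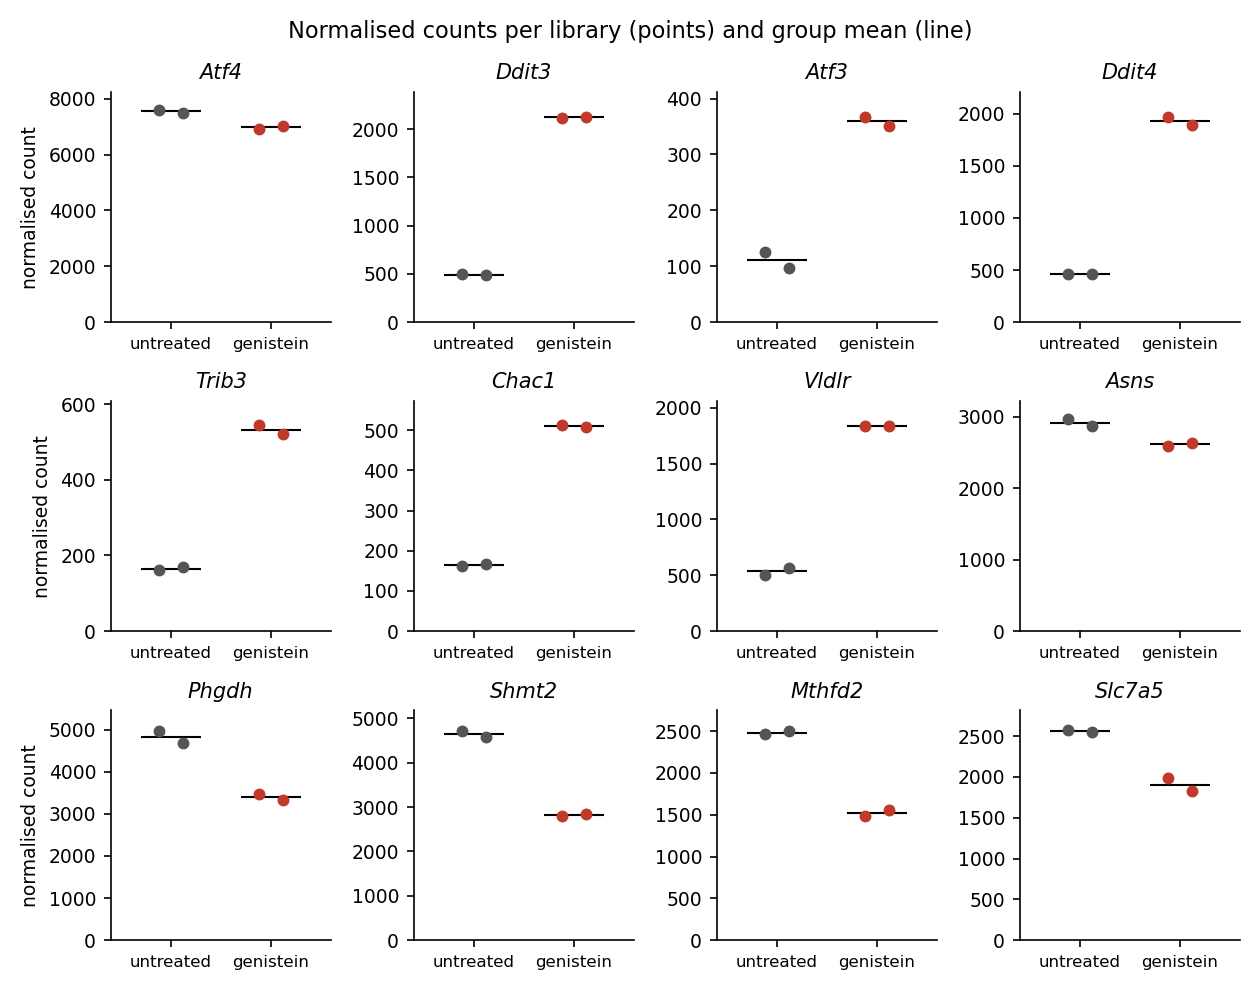
Normalised read counts (y axis, from 0) of 12 ATF4 genes in each library, with untreated libraries in grey, genistein libraries in red, and a line at the mean of each group of 2. Ddit3, Atf3, Ddit4, Trib3, Chac1 and Vldlr lie 3.10-fold to 4.33-fold higher after genistein, while Atf4 and Asns are close in both groups and Phgdh, Shmt2, Mthfd2 and Slc7a5 are lower.

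The amino acid synthesis genes did not follow the effectors. Of the 11, 3 were higher, 6 were lower and 2 did not pass the test, with a median log2 fold change of -0.16. Without the library genistein 1 and without Cbs, which then fell under the filter, it was -0.24 over 10 genes, which had a median of -0.21 with all libraries. None passed the study's thresholds, which 3.92% of all genes passed upward and 4.16% downward. By adjusted p, 27.3% of the synthesis genes were higher and 54.5% lower, against 33.5% and 38.2% of all genes. Among the higher ones is Cbs, which passed the filter only through the genistein libraries. Asns (chr6:7675169-7693254, minus strand) encodes asparagine synthetase, a standard marker of ATF4 activity. It had 2965 and 2872 normalised counts in untreated cells and 2594 and 2639 after genistein. The groups did not overlap, but the decrease was small, with a log2 fold change of -0.16 and a standard error of 0.04 (edgeR adjusted p = 0.0010), and it was not called when libraries were scaled by their totals (adjusted p from 2.3e-05 to 0.063 over all alternatives). Per kilobase, the ratio of Trib3 to Asns went from 0.0698 and 0.0754 in untreated cells to 0.270 and 0.254 after genistein, and that of Chac1 to Asns from 0.0918 and 0.0967 to 0.330 and 0.321. Trib3, Chac1 and Asns all hold CARE letters in the windows printed above.

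Serine is made from a glycolytic intermediate by the enzymes of Phgdh, Psat1 and Psph in turn. Phgdh, which encodes the entry enzyme (chr3:98313170-98339990, minus strand), had 4980 and 4685 normalised counts in untreated cells and 3479 and 3318 after genistein, a 1.42-fold decrease (log2 fold change -0.51, SE 0.04, edgeR adjusted p = 4.6e-09). Psat1 had 6222 and 6132 against 5710 and 5641, a log2 fold change of -0.12 (SE 0.03, edgeR adjusted p = 0.0018), and it was not called when libraries were scaled by their totals (adjusted p from 0.0011 to 0.19 over all alternatives). Psph had 832 and 809 against 835 and 848, with a log2 fold change of 0.04 and a 95% interval from -0.08 to 0.15 (edgeR adjusted p = 0.58). The log2 fold change was thus most negative at the entry step, and the interval of Psph spans 0. Of the 4329 exon bases of Psph, 452 overlap Cct6a on the other strand, a chaperonin gene with a mean of 14034 normalised counts and a log2 fold change of -1.26.

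The mRNAs of mitochondrial enzymes that take carbon units from serine into folate were lower than that of Phgdh in relation to their untreated level. Shmt2 (chr10:127517123-127522444, minus strand), which splits serine into glycine and a folate-bound carbon, had 4711 and 4577 normalised counts in untreated cells and 2803 and 2848 after genistein. Its decrease was 1.64-fold, with a log2 fold change of -0.72 and a standard error of 0.03 (edgeR adjusted p = 1.7e-11). Mthfd2 (chr6:83305691-83325908, minus strand), the next enzyme, went from 2461 and 2499 to 1482 and 1560, a 1.63-fold decrease (log2 fold change -0.71, SE 0.04, edgeR adjusted p = 2.0e-10). Of all genes tested, 13.1% had a lower log2 fold change than Shmt2.

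The last steps of that mitochondrial pathway were looked at beside Shmt2 and Mthfd2. Mthfd1l, which releases formate, stood at 32.6% and 34.3% of the untreated mean in the genistein libraries, a log2 fold change of -1.58. Aldh1l2, which burns the carbon unit to carbon dioxide, stood at 175.5% and 170.1%, a log2 fold change of 0.79, and was chosen after its values were seen. Per kilobase, the ratio of Mthfd2 to Aldh1l2 was 6.02 and 5.80 in untreated cells and 2.01 and 2.19 after genistein.

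**Figure D3:**
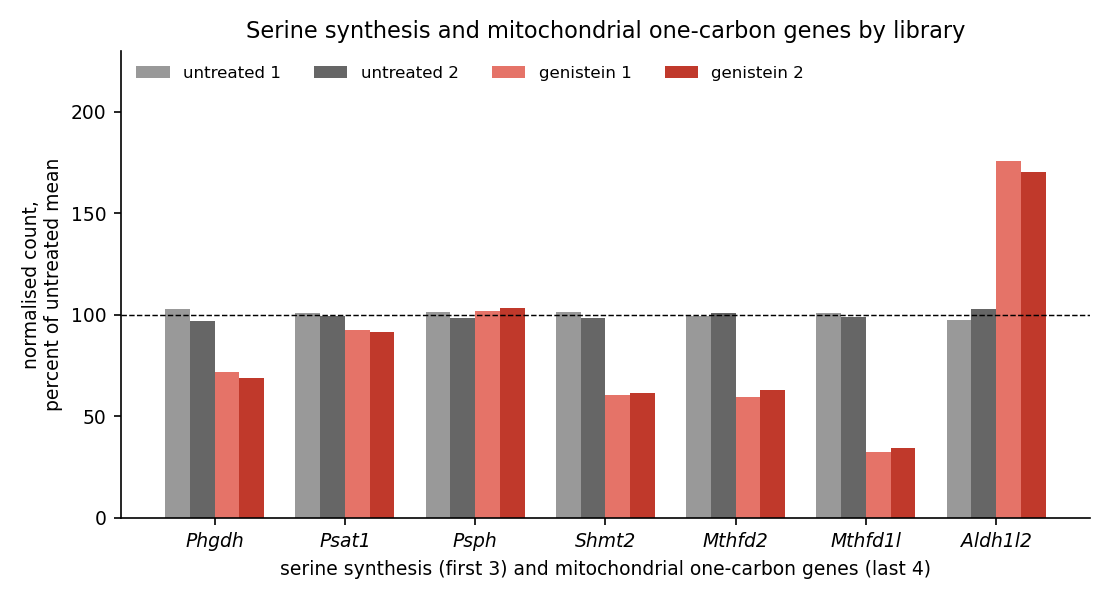
Normalised read counts of serine synthesis genes and mitochondrial folate genes in each library as a percent of the untreated mean (y axis, from 0; dashed line at 100%). Genistein libraries (red) lie at 72.0% and 68.7% for Phgdh, near 100% for Psph, at 59.7% to 62.9% for Shmt2 and Mthfd2, at 32.6% and 34.3% for Mthfd1l, and above 170% for Aldh1l2.

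Proline is made from glutamate by the enzymes of Aldh18a1 and Pycr1, which went opposite ways. Aldh18a1 fell from 3442 and 3419 to 2647 and 2686 normalised counts, a log2 fold change of -0.36 (SE 0.03, edgeR adjusted p = 9.1e-08). Pycr1 rose from 227.8 and 216.0 to 282.2 and 268.2, a log2 fold change of 0.31 (SE 0.09, edgeR adjusted p = 0.0078), which DESeq2 did not call (adjusted p from 0.0015 to 0.16 over all alternatives). Per kilobase, the ratio of Pycr1 to Aldh18a1 was 0.0685 and 0.0654 in untreated cells and 0.110 and 0.103 after genistein.

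Pck2, the mitochondrial enzyme that makes phosphoenolpyruvate, had 1669 and 1722 normalised counts in untreated cells and 1900 and 1762 after genistein. Its log2 fold change of 0.11 (SE 0.05, edgeR adjusted p = 0.039) was not called under 6 alternatives, among them those without untreated 1 and without genistein 1, where it was 0.08 and 0.06 (adjusted p from 0.0021 to 0.35 over all alternatives). Cth and Cbs encode the enzymes that make cysteine from homocysteine. Cth had 149.8 and 190.6 normalised counts in untreated cells and 153.8 and 127.5 after genistein, and the groups overlapped (log2 fold change -0.27, 95% interval from -0.56 to 0.03, edgeR adjusted p = 0.097). It was called lower without untreated 1 (log2 fold change -0.44) and without genistein 1 (-0.41).

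Cbs was barely detected, with 0 and 1 reads in untreated cells and 16 and 10 reads after genistein. Summed over the libraries of a group and set against their effective sizes, the genistein level was 24.6 times the untreated level, with an exact 95% Clopper-Pearson interval from 4.05 to 1009 that covers counting error only. Without molecular identifiers, PCR copies cannot be told from separate molecules. edgeR gave an adjusted p of 0.00020, and its log2 fold change of 4.32 depends on the prior count and moved from 3.43 to 6.70 when single libraries were left out, with 6.70 without untreated 2. Without genistein 1 it did not pass the filter.

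Of the 5 amino acid transport genes, 2 were higher, 2 were lower and 1 did not pass the test, and the median of their log2 fold changes was -0.07. These shares, 40% each way, lay near those of all genes, with 33.5% higher and 38.2% lower. The higher share includes Slc7a3, which had few reads and passed the filter only through the genistein libraries. Slc7a5 and Slc3a2 encode the light and heavy chains of the leucine transporter, which work as a pair, and their mRNAs moved in opposite directions. Slc7a5 fell from 2572 and 2549 to 1984 and 1822 normalised counts, a 1.34-fold decrease (log2 fold change -0.43, SE 0.04, edgeR adjusted p = 1.9e-07). Slc3a2 rose from 3058 and 3078 to 3644 and 3474 (log2 fold change 0.21, SE 0.04, edgeR adjusted p = 5.7e-05). Per kilobase, the ratio of Slc7a5 to Slc3a2 was 0.801 and 0.788 in untreated cells and 0.518 and 0.499 after genistein. The heavy chain also serves other light chains.

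Slc38a2, the sodium-coupled carrier of small neutral amino acids, had 14548 and 14595 normalised counts in untreated cells and 13249 and 13746 after genistein. Its log2 fold change of -0.11 (SE 0.05, edgeR adjusted p = 0.041) was not called under 6 alternatives, among them those without untreated 1, untreated 2 or genistein 1 (adjusted p from 0.00080 to 0.52 over all alternatives). The arginine carrier gene Slc7a1 had 2597 and 2610 against 2520 and 2434, with a log2 fold change of -0.07 and a 95% interval from -0.15 to 0.01 (edgeR adjusted p = 0.096). Its relative Slc7a3 was near the limit of detection, with 9 and 6 reads in untreated cells and 14 and 18 after genistein. The ratio of its summed levels was 2.02 (exact 95% interval from 1.06 to 4.01), and its call (edgeR adjusted p = 0.041) was lost under 6 alternatives, among them those without untreated 1, untreated 2 or genistein 2 (adjusted p from 0.028 to 0.32 over all alternatives).

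Vldlr, the receptor for very low density lipoprotein and reelin (chr19:27216484-27254231, plus strand), was also higher. It had 506.5 and 564.3 normalised counts in untreated cells and 1834 and 1840 after genistein. The genistein libraries were nearly equal. The increase was 3.43-fold, with a log2 fold change of 1.78 and a standard error of 0.06 (edgeR adjusted p = 1.5e-13), and 2.56% of all genes tested had a larger one.

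The secreted factors had at most 20 reads in any library. Gdf15, a stress hormone that acts on the hindbrain, had 3 and 6 reads in untreated cells and 20 and 14 after genistein. The ratio of its summed levels was 3.58 (exact 95% interval from 1.68 to 8.48), and its log2 fold change was 1.81 (SE 0.47, edgeR adjusted p = 0.0028). The call was lost with DESeq2 and without untreated 1, where the log2 fold change was 1.36 (adjusted p from 0.00067 to 0.082 over all alternatives). Fgf21, a metabolic hormone, had 0 and 1 reads against 9 and 3, a ratio of 11.4 (exact 95% interval from 1.68 to 486). Stc2, a secreted glycoprotein, had 7 and 3 reads in untreated cells and 1 and 0 after genistein, so that the untreated level was 10.6 times the genistein level (exact 95% interval from 1.502 to 458). Neither Fgf21 nor Stc2 passed the filter on low counts. With no such filter, edgeR gave them log2 fold changes of 3.20 (adjusted p = 0.017) and -3.13 (adjusted p = 0.029), which depend on the prior count, and DESeq2 gave no adjusted p.

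The levels of the 30 genes in untreated cells spanned a wide range, again per kilobase of exon. Cebpb and Atf4 led with 3422 and 3201 normalised counts per kilobase, followed by Phgdh with 1944, Slc38a2 with 1649, Shmt2 with 1494, Psat1 with 1452 and Asns with 1067. The order of Shmt2 and Psat1 did not rest on a clear gap, since their ratio was 1.04 and 1.02 in the untreated libraries. After genistein that ratio was 0.672 and 0.691. Gdf15, Slc7a3, Stc2, Fgf21 and Cbs stood at 2.52, 2.03, 0.98, 0.56 and 0.07 normalised counts per kilobase. The genes past the study's thresholds started from 51.6 (Atf3) to 286 (Ddit3) normalised counts per kilobase, below the synthesis genes that fell.

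Other genes of the pathway were counted in the same fit. Of 18 upstream genes of eIF2 signalling, 5 were higher (27.8%) and 13 lower (72.2%), with a median log2 fold change of -0.49. Over all genes tested, 33.5% were called higher and 38.2% lower. The genes of the eIF2 and eIF2B subunits, which form the initiation factor and its exchange factor, were lower in 8 of 8 cases, with log2 fold changes from -1.17 to -0.68. Eif2s1, which encodes the subunit that is phosphorylated, fell from 5394 and 5234 to 2731 and 2836 normalised counts, a log2 fold change of -0.93, and Eif2b4 and Eif2b5 had log2 fold changes of -1.17 and -0.86. The eIF2 kinase genes went both ways. Eif2ak3, the ER stress kinase, and Eif2ak2, the kinase of double-stranded RNA, rose with log2 fold changes of 0.43 and 0.42, and Eif2ak1 and Eif2ak4, the kinases of heme and amino acid shortage, fell with -0.16 and -0.20. Impact, an inhibitor of the amino acid kinase, rose with 0.43.

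Among 18 other known ATF4 targets, 13 were higher (72.2%) and 5 lower (27.8%), with a median log2 fold change of 0.48. The study's thresholds were passed by 3 upward (16.7%) and 2 downward. Over all genes, 33.5% were higher and 38.2% lower, and 3.92% and 4.16% passed the thresholds upward and downward. Sesn2, a stress sensor that restrains mTOR, rose from 480 and 444 to 1973 and 1977 normalised counts, a 4.27-fold increase (log2 fold change 2.09, SE 0.06, edgeR adjusted p = 1.5e-14). The heme oxygenase gene Hmox1 and the transcription factor gene Atf5 rose with log2 fold changes of 1.45 and 1.16. Mthfd1l, the branched-chain aminotransferase gene Bcat1 and the amino acid carrier gene Slc43a1 fell, with -1.58, -1.27 and -0.85.

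The list of cytosolic aminoacyl-tRNA synthetase genes, which load amino acids onto tRNA and are known ATF4 targets in part, also holds the tRNA exporter Xpot. Of its 21 genes 1 was higher (Qars, log2 fold change 0.12), 19 were lower and 1 did not pass the test, with a median of -0.50. The share called lower was 90.5%, against 38.2% of all genes tested. Vars, Farsa and Farsb fell most, with log2 fold changes of -1.18, -1.15 and -1.05. Of 19 genes of the other ER stress branches, 6 were higher (31.6%) and 12 lower (63.2%), with a median of -0.31. The shares over all genes were 33.5% and 38.2%. The ER chaperone Dnajb9, the sensor Ern1 and the degradation factor Sel1l rose with log2 fold changes of 0.65, 0.45 and 0.38, and the folding genes Creld2, Manf and Hyou1 fell with -0.82, -0.80 and -0.63. None of these 19 genes passed the study's thresholds, which 3.92% of all genes passed upward and 4.16% downward.

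**Figure D4:**
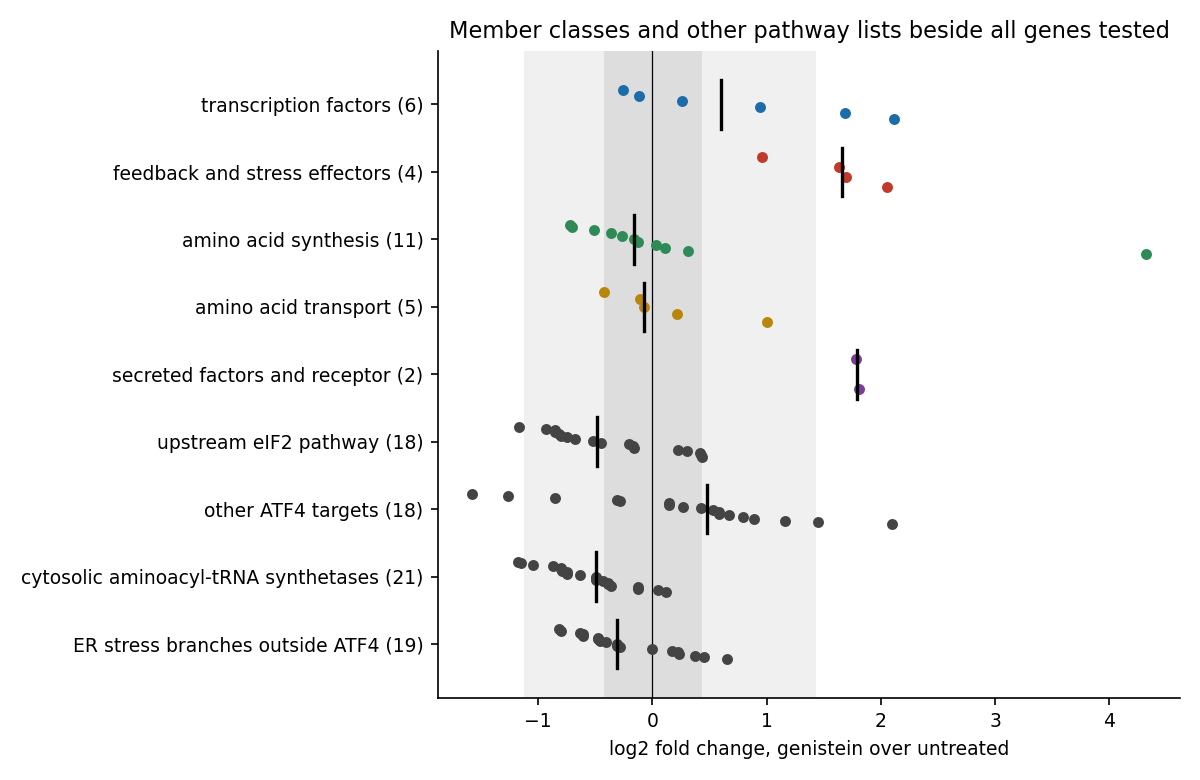
Log2 fold changes (x axis, genistein over untreated) of the tested genes in the 5 classes of ATF4 genes (coloured) and in 4 other pathway lists (grey), 1 point per gene with a bar at the median; numbers in brackets are genes tested. Over all 16240 genes tested, the dark band runs from the 25% to the 75% quantile (-0.43 to 0.44) and the light band from the 5% to the 95% quantile (-1.11 to 1.43). Of the 4 effectors, 3 lie beyond the right edge of the light band, while the synthetases, with a median of -0.50, lie mostly to the left of 0.

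CARE letters stood in 9 of the 27 promoter windows of the ATF4 genes (33.3%), against 4.51% of 27025 gene symbols with a window. The genes were listed for their part in the ATF4 response, so this higher share is no result of these data. The 27025 symbols also include genes that were not tested here. By call, the letters stood in 7 of 14 higher genes, 1 of 9 lower genes, 0 of 2 genes that did not pass the test and 1 of 2 untested genes. Their shares among all higher and all lower genes are not given here, so these counts do not show that the letters go with direction. The higher genes without the letters include Cbs and Gdf15, which passed the filter only through the genistein libraries. The median log2 fold change was 1.29 over the 8 tested ATF4 genes with the letters and -0.07 over the 17 without. Over all tested genes with a window, it was 0.09 for the 259 genes with the letters and -0.04 for the 9763 without, and 6.18% and 4.26% of them passed the study's thresholds upward. Ddit3 and Ddit4, which rose most among the well-counted genes, had no match in their windows, and this says only that the letters were not within these 300 bases. Of the other lists, the letters stood in 5 of 14 windows of the further ATF4 targets, 5 of 13 of the synthetase list, 1 of 15 of the upstream genes and 0 of 16 of the other ER stress branches. In the synthetase list, 38.5% of the 13 windows held the letters, and 19 of all 21 genes were lower. Of the 21 genes, only Qars was higher and only Cars did not pass the test, so most of the 5 genes with the letters were lower. Which of the 21 genes held the letters is not given here.

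**Figure D5:**
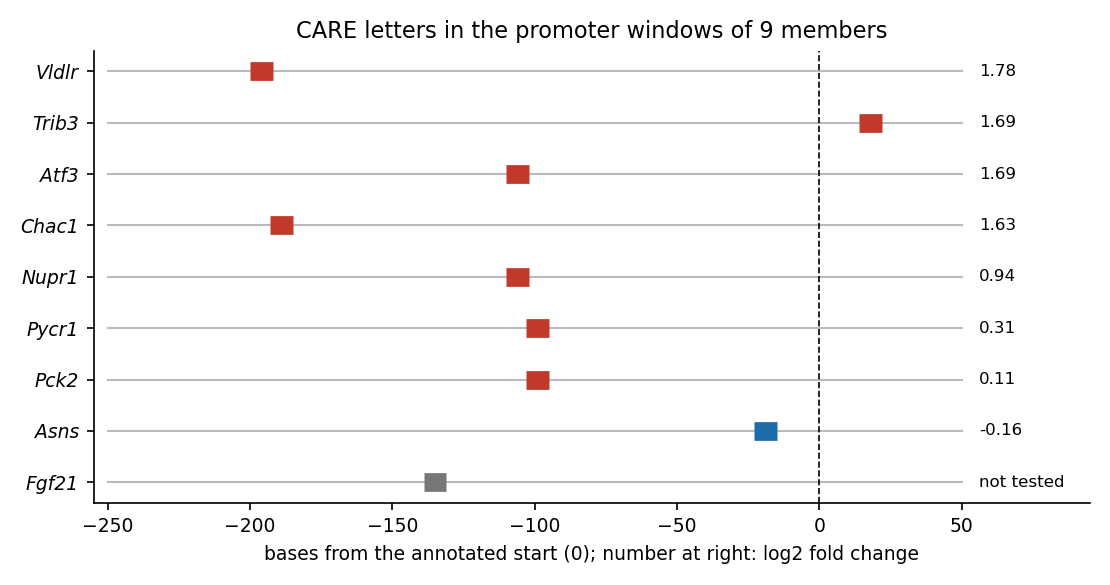
Position of the CARE letters (boxes) in the promoter windows of 9 ATF4 genes, in bases from the RefSeq start (x axis, dashed line at 0), with the log2 fold change at the right. Red boxes mark genes called higher, blue lower and grey untested; the boxes begin between 200 bases before the start (Vldlr) and 14 bases after it (Trib3), and Asns, at 23 bases before it, is the only one called lower.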

How the data were processed

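Per the labels and the study's methods, total RNA was depleted of ribosomal RNA, made into stranded libraries and sequenced as paired ends. The authors used Trim Galore for trimming, STAR for alignment to mm10 (reads with many alignments were kept) and TEtranscripts for counting over Gencode genes and repeats. Raw counts per gene and repeat were deposited, and the strand option of the counting was not given in the sources used here. The row that names no gene held 0.00208% to 0.00314% of the counts and was left out.

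Counts of all 4 libraries were fitted in edgeR 4.0.16 (R 4.3.3) with filterByExpr, TMM scaling and the two-sided quasi-likelihood test on the group, with Benjamini-Hochberg adjustment over 16240 genes and 1118 repeats kept. A normalised count is the count over the library's effective size, times the mean effective size. Standard errors are the log2 fold change over the square root of F. With 2 libraries against 2, an exact permutation test cannot go below p = 0.333. Exon lengths and coordinates are those of GENCODE on GRCm38, which is the assembly mm10. Promoter windows are from RefSeq. The fit was also run on simulated counts with few, large changes and the same spread setting for all rows. That setting differs from these data, so it does not bear on the small log2 fold changes here.

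All 30 ATF4 genes are named. From each other list, the text names up to 3 higher and up to 3 lower genes with the largest log2 fold change at an adjusted p under 0.05, a mean normalised count over 100 and no overlap between groups, and the 4 eIF2 kinases. The genes and lists were chosen with earlier results of these data known. Alternatives covered scaling, filtering, DESeq2 1.42.0, thresholds, leaving out each library, and the replicate number as a block.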

Additional observations from a re-analysis of the deposited data

How the results depend on the processing

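No ATF4 gene changed direction under any alternative. Of 279 values of the 28 tested genes, 249 kept their side of the threshold, 26 lost the call and 4 gained one. With library totals in place of TMM, 6 of the ATF4 genes were lower instead of 10, and the median log2 fold change was 0.67 for transcription factors, 1.73 for effectors and -0.0021 for transport. With TMM from genes alone it was 1.71 for effectors and -0.028 for transport. With no filter on low counts, 14 were higher, Fgf21 among them, and 13 lower, Stc2 among them. With no limit on the fold change, 12 genes passed the study's thresholds upward and 10 downward, counts for which the shares over all genes are not given here. Leaving out single libraries gave medians from 0.061 to 0.18 over the ATF4 genes fitted and from -0.24 to -0.14 for synthesis genes (0.061 and -0.24 without genistein 1, where Cbs was filtered out; the same 27 and 10 genes had 0.11 and -0.21 with all libraries), with 12 to 14 genes higher and 9 to 10 lower. The arm left with 1 library was taken to vary like the other. With the replicate number as a block, 13 genes were higher and 9 lower, since Pck2, Slc7a3 and Slc38a2 were not called. Same-numbered libraries did not deviate together (correlation -0.03), so the numbers are not shown to pair the samples. Scaling moved the median log2 fold change of all genes from -0.04 to 0.04, so log2 fold changes of about 0.1 depend on it. Depth limits Cbs, Slc7a3, Gdf15, Fgf21 and Stc2, which had at most 20 reads in any library.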
